A study of Mus musculus with 2 samples.

Results

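The regulators of G protein signaling (RGS) described here were 10 mouse genes, *Rgs1*, *Rgs2*, *Rgs3*, *Rgs9*, *Rgs10*, *Rgs12*, *Rgs14*, *Rgs16*, *Rgs18*, and *Rgs19*, out of 20887 named genes on the arrays. They were picked by name with their signals on these same arrays already known, and no numerical threshold separated them from the other RGS genes, so all of their values are given as a description without a test. RGS proteins bind activated Gα subunits and speed up GTP hydrolysis, which returns the G protein to its resting state and shortens signaling from G protein-coupled receptors. In lymphocytes this brake acts on chemokine receptors and other receptors that steer migration and retention in tissue. The family is divided by sequence into R4 proteins (here *Rgs1*, *Rgs2*, *Rgs3*, *Rgs16*, and *Rgs18*), RZ proteins (*Rgs19*), R7 proteins (*Rgs9*), and R12 proteins (*Rgs10*, *Rgs12*, and *Rgs14*).

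Expression was measured in TCRαβ+CD8αα+ intraepithelial lymphocytes (IELs), unconventional T cells that reside between the epithelial cells of the small intestine. The Control cells came from *Rbpj* f/f mice, for which the sample labels name no *Cre* whereas the study describes *Rbpj* +/+ mice with CD4-*Cre* as controls, and the RFF4 cells came from CD4-*Cre* *Rbpj* f/f mice. Rbpj is the DNA-binding partner of the Notch receptors, and CD4-*Cre* removes the floxed gene in cells of the T lineage and not in other cells of the mouse. Both groups were C57BL/6 mice, males and females pooled, 8 to 12 weeks of age by the labels, and their IELs were sorted after CD4+ and TCRγδ+ cells had been depleted and CD8β+ cells gated out. RNA from several isolations was pooled, so each genotype had 1 pooled sample on 1 array (n = 1), and no biological spread, test across samples, or p-value could be obtained. The question was which transcripts differ when T cells cannot use Rbpj.

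Each value is a scaled log2 signal, the log2 of the background-subtracted Cy3 intensity of a probe minus the 75th percentile of all gene probes on its array, and each difference is RFF4 minus Control. The RFF4 array was dimmer, with a 75th percentile of 7.63 against 8.78 on the log2 scale before scaling, and 49.7% of its gene spots were well above background by the scanner software, against 57.2% on the Control array. Probes printed at 10 spots gave a technical SD of 0.16 for a log2 difference, and the error model of the software gave about 0.20 for bright probes, and both cover the array measurement only. Scaling to the spike-in probes in place of the 75th percentile adds −1.08 to every difference, so that a difference above 0 but smaller than this shift turns negative under it. In the label check, the Notch target genes *Heyl* and *Dtx1* had log2 differences of −3.81 and −3.64. *Rbpj* itself read 2.17 in Control and 2.48 in RFF4 by its brighter probe and −1.23 and −0.42 by its dimmer one, and since the place of these probes relative to the deleted exons is not given in the sources used here, they check neither label. The T cell markers *Cd3e* (8.31 and 8.64) and *Cd8a* (6.45 and 6.37) were bright in both groups, whereas *Cd8b1*, which the gate removes, read −3.31 and −4.05, the latter not well above background, and *Cd4* was still well above background on both arrays, with a difference of 0.12.

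Both arrays gave a signal well above background for 9 of the 10 RGS genes, so none of the 9 was kept through 1 array alone. *Rgs18* was the exception, at or near background on both. *Rgs9* was lower in RFF4 by more than 2-fold, and in fact by more than 4-fold, although with another background correction (normexp) its difference was −1.86, short of 4-fold. No gene was more than 2-fold higher. Among all 13519 named genes with a difference, 5.21% lay below the 2-fold limit and 12.1% above it, and 0.584% and 1.79% lay past 4-fold in the lower and the higher direction. Since the genes were picked with these differences known, nothing is read from the counts beside these shares. The median difference of the 9 genes was −0.11, beside −0.03 over all genes, with 5 lower and 4 higher values beside 51.9% and 48.1% of all genes. Fewer cells of a type and less RNA per cell cannot be told apart in such pooled RNA.

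**Figure D1:**
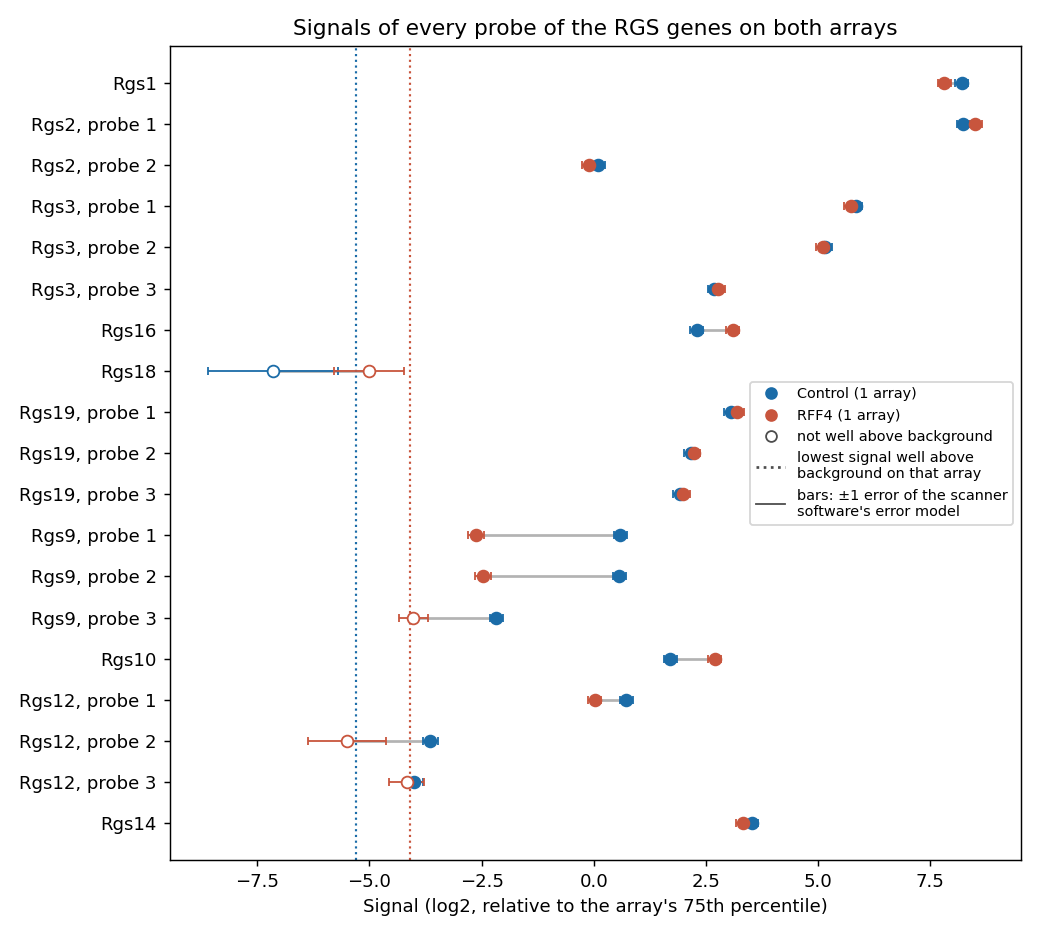
Scaled log2 signal (x axis, relative to the 75th percentile of each array) of every probe of the 10 RGS genes on the Control and RFF4 arrays, 1 array each. Open points were not well above background, dotted lines mark the lowest signal well above background on each array, and bars are ±1 error of the scanner software's error model. *Rgs9* drops from 0.57 to −2.47, *Rgs10* and *Rgs16* have a higher scaled signal in RFF4 by less than 2-fold, and *Rgs18* lies at background on both arrays.

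*Rgs9* encodes an R7 protein best known from photoreceptors and striatal neurons, where it shortens light and dopamine responses. Its representative probe read 0.57 in Control and −2.47 in RFF4. The unscaled intensity, after subtraction of the background, was 652 in Control and 35.6 in RFF4, which is 21.0 times and 0.92 times the local background that was subtracted. Control was thus the high array, and the probe was still well above background in RFF4. The difference was −3.04, an 8.22-fold lower signal, with an error of 0.23 from the error model. This placed *Rgs9* at rank 10 from the lowest of the 12955 genes that both arrays measured above background.

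The other *Rgs9* probes pointed the same way. Another probe of the same transcript read 0.59 and −2.62, a 9.31-fold lower signal in RFF4. A further one, designed to another *Rgs9* transcript, read −2.17 in Control and −4.02 in RFF4, where it was not well above background, so that its signal was at least 3.61-fold lower, a difference that shrank to −0.20 with the normexp correction. All 3 probes were therefore higher in Control. The size depended on the processing. The difference of the representative probe was −1.86 with a normexp correction of the median spot signal and −4.12 with scaling to the spike-in probes. It was −3.05 with quantile normalization and −2.93 with cyclic loess, and the mean of all probes was −2.70. Spike-in scaling and the remaining alternatives lower every difference or repeat the value, so they could not turn its sign.

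Promoter windows, from 250 bases before to 50 bases after an annotated start, were read for 7 of the 10 genes from RefSeq on GRCm38.p6, and entries for *Rgs1*, *Rgs14*, and *Rgs18* are not analysed here. They are shown for the gene with the lowest difference, *Rgs9*, and for the genes with the highest differences, *Rgs10* and *Rgs16*. The windows lie at chr11:109298132-109298431 on the minus strand for *Rgs9*, at chr7:128418123-128418422 on the minus strand for *Rgs10*, and at chr1:153740103-153740402 on the plus strand for *Rgs16*, and each is written 5′ to 3′ in the direction of the gene. Capitals mark the letters GTGGGAA, a form of the sequence that Rbpj is known to bind, or their reverse complement TTCCCAC.
Rgs9: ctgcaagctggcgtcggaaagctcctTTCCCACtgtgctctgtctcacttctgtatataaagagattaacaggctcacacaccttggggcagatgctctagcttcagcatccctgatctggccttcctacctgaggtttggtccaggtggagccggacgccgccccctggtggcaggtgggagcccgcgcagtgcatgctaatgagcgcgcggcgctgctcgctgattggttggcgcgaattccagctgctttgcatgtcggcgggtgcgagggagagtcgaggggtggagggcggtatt
Rgs10: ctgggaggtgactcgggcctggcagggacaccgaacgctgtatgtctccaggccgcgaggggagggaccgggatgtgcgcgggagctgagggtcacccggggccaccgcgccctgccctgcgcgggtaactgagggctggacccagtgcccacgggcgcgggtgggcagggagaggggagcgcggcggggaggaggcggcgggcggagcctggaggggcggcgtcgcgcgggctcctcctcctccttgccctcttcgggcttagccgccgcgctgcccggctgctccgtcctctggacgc
Rgs16: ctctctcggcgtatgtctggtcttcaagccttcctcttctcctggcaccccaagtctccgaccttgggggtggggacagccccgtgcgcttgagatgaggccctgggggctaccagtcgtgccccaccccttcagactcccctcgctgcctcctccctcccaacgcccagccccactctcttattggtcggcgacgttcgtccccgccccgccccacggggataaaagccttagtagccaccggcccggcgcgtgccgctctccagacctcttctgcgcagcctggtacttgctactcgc

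The *Rgs9* window held 1 match to GTGGGAA, on the opposite strand, beginning at position −224 counted from the start. No other window of these genes held it, and 6.38% of all 32851 promoter windows in the table did. The shorter letters TGGGAA, which lie inside the longer motif, were found on either strand in 5 of the 11 windows, belonging to *Rgs3*, *Rgs9*, *Rgs12*, and *Rgs19*, and in 25.6% of all windows. Neither form was found in the *Rgs10* and *Rgs16* windows shown, nor in the window of the Notch target gene *Dtx1*, which was also lower in RFF4. A match is a match of letters and no measurement of binding.

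R7 proteins work in a complex with the Gβ5 subunit and a membrane anchor. *Gnb5*, encoding Gβ5, read 0.43 in Control and 0.68 in RFF4, a difference of 0.25 that turned to −0.83 with spike-in scaling. *Rgs9bp*, encoding the anchor of Rgs9 in photoreceptors, read −3.09 and −3.28, a difference of −0.19 at a low signal that turned to 0.56 with the normexp correction. A dimmer *Rgs9bp* probe read −4.91 in Control and −6.43 in RFF4, where it was not well above background, and allows no bound above 1-fold. The direction of *Rgs9bp* is therefore not settled. *Rgs7bp*, *Gpr158*, and *Gpr179*, which encode other anchors and receptors of R7 complexes, were not well above background on either array.

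The remaining R7 genes, which were not among the 10, differed in direction from each other. *Rgs11*, known from retinal bipolar cells, read −1.04 in Control and −2.22 in RFF4, a 2.26-fold lower signal, which shrank to −0.42 with the normexp correction. *Rgs7*, a neuronal gene, read −5.15 and −3.61, a 2.92-fold higher signal in RFF4, but its background-subtracted intensities were only 0.35 and 0.36 times the local background and its difference was 0.97 with the normexp correction. *Rgs6* was not well above background on either array.

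The R12 genes spread to both sides of 0. *Rgs10* encodes one of the shortest RGS proteins, which acts on Gαi and is known from T cells as well as macrophages and microglia. It read 1.71 in Control and 2.69 in RFF4. RFF4 was the high array by 0.99, a 1.98-fold higher scaled signal just short of 2-fold, although the unscaled intensity was 1439 in Control and 1279 in RFF4. The difference passed 2-fold with quantile normalization (1.06) and cyclic loess (1.07) and was −0.09 with scaling to the spike-in probes.

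*Rgs12* and *Rgs14* encode large R12 proteins that add Ras-binding and GoLoco domains to the RGS domain. The brightest *Rgs12* probe read 0.73 in Control and 0.02 in RFF4, a 1.62-fold lower signal that passed 2-fold with spike-in scaling (−1.78). Its other probes, both dim, read −3.64 and −4.01 in Control and −5.50 and −4.17 in RFF4, where neither was well above background, which gives at least 1.37-fold and at least 1.06-fold lower signals. *Rgs12* was therefore higher in Control by each probe at this scaling, whereas with the normexp correction the dim probes gave 0.42 and 0.69. *Rgs14* read 3.52 in Control and 3.32 in RFF4, a difference of −0.20 that is little more than the technical SD and was −1.29 with spike-in scaling.

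Among the R4 genes the direction differed from gene to gene. *Rgs1*, a brake on chemokine receptors that is abundant in gut T cells, read 8.20 in Control and 7.81 in RFF4. The difference was −0.39, a 1.31-fold lower signal in RFF4. It was larger with the normexp correction (−0.65), cyclic loess (−0.75), quantile normalization (−0.95), and spike-in scaling (−1.47), which takes it past 2-fold. Normexp, cyclic loess, and quantile normalization could have turned the sign and did not, whereas the other alternatives repeat the value or lower every difference.

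*Rgs2* encodes a regulator that acts mainly on Gαq. Its brighter probe read 8.24 in Control and 8.51 in RFF4, a difference of 0.27, and its dimmer probe read 0.10 and −0.11, a difference of −0.21. The probes thus disagreed in direction, and the brighter one turned to −0.30 with quantile normalization and −0.12 with cyclic loess. No direction is given for *Rgs2*.

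*Rgs3* has long and short isoforms, and its 3 probes covered 2 transcript accessions. They read 5.84, 5.17, and 2.69 in Control and 5.73, 5.10, and 2.78 in RFF4. The differences of −0.11, −0.06, and 0.09 were all within the technical SD at this scaling, while the first was −0.28 with cyclic loess, −0.30 with quantile normalization, −0.33 with normexp, and −1.19 with spike-in scaling. *Rgs16*, which is known to be induced when T cells are activated, read 2.30 in Control and 3.10 in RFF4. RFF4 was the high array by 0.80, a 1.75-fold higher signal, from unscaled intensities of 2163 and 1694, and spike-in scaling turned the difference to −0.28.

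*Rgs18*, known from platelets and megakaryocytes, read −7.15 in Control and −5.01 in RFF4 and was not well above background on either, so no difference is given. The platelet genes *Pf4*, *Ppbp*, *Gp9*, and *Treml1* were likewise not well above background on either array, whereas *Gp1bb* was on both, with a difference of 1.38, and *Itga2b* was in Control alone. Of the R4 genes outside the 10, *Rgs13*, known from germinal centre B cells and mast cells, was not well above background in Control (−5.59) and read −3.73 in RFF4, at least 2.96-fold higher. With the normexp correction its difference was 1.03, and with spike-in scaling 0.48, which is under 2-fold. *Rgs4*, *Rgs5*, and *Rgs8* were not well above background on either array.

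The RZ gene *Rgs19* encodes a regulator of Gαi and Gαz. Its brightest probe read 3.05 in Control and 3.20 in RFF4, a difference of 0.15, and its other probes differed by 0.07 and 0.08. All were within the technical SD, and the brightest probe gave −0.93 with spike-in scaling. *Rgs20*, an RZ gene outside the 10, read 2.65 and 2.83, a difference of 0.18 that was −0.03 with normexp and −0.90 with spike-in scaling, while another of its probes was at background. *Rgs17* (RZ) and *Rgs22* were not well above background on either array, and *Rgs21* was not analysed here.

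**Figure D2:**
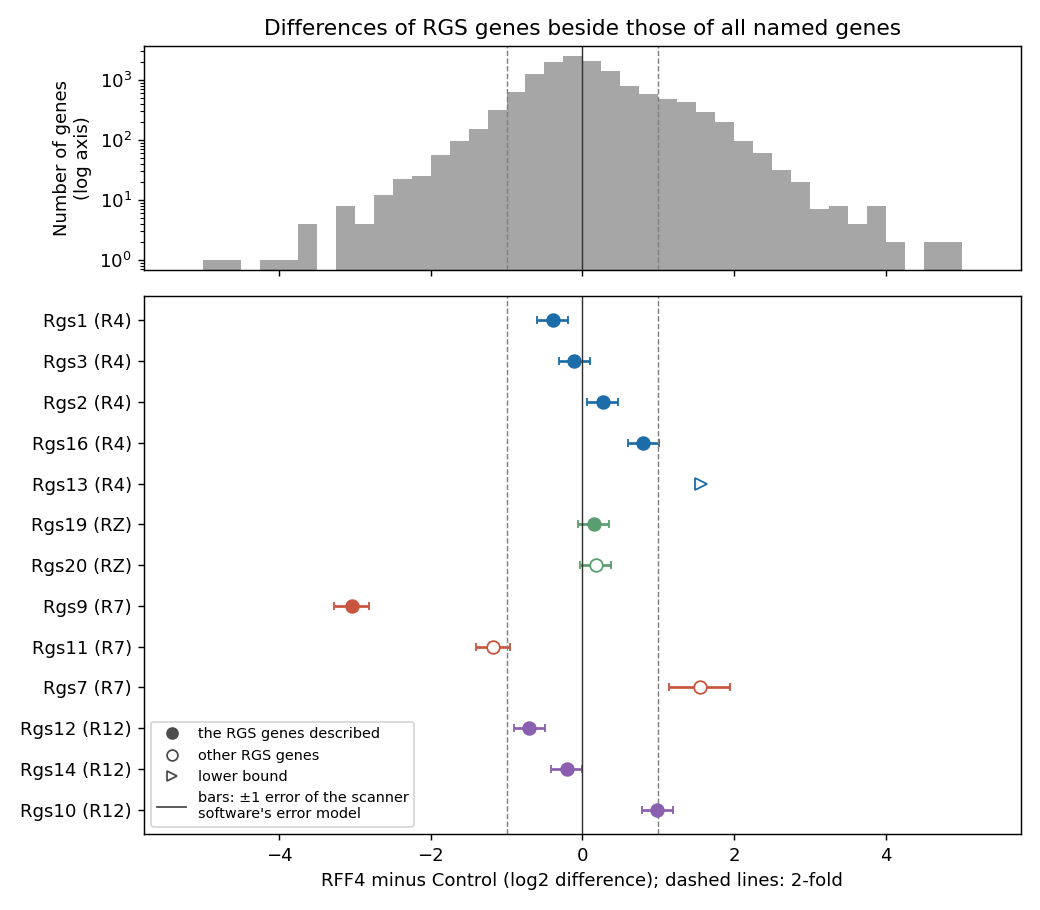
RFF4 minus Control log2 difference (x axis) of the RGS genes with a difference, by subfamily, under a histogram of all 13519 named genes (log y axis). Filled points are the genes described, open circles other RGS genes, the triangle a lower bound, bars ±1 error of the scanner software's error model, and dashed lines 2-fold. *Rgs9* lies at −3.04 and most other members lie within 2-fold.

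By subfamily, the differences ran from −0.39 to 1.57 (the bound of *Rgs13*) over 5 R4 genes, from 0.15 to 0.18 over 2 RZ genes, from −3.04 to 1.54 over 3 R7 genes, and from −0.70 to 0.99 over 3 R12 genes, with genes outside the 10 included. The R7 group was thus the widest, through *Rgs9* at its low end and the dim *Rgs7* at its high end. Over the 13 RGS genes with a difference, *Rgs9* and *Rgs11* (2 genes) passed 2-fold downward and *Rgs7* and *Rgs13* (2 genes) upward, beside 5.21% and 12.1% of all genes, and nothing is read from these counts.

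Several members are neighbours in the genome. In the order of RefSeq genes on GRCm38.p6, *Rgs2*, *Rgs13*, *Rgs1*, *Rgs21*, and *Rgs18* follow one another on chromosome 1 with 0 other protein-coding genes between them, and *Rgs8* and *Rgs16* are adjacent on the same chromosome. In the first cluster *Rgs1* was at −0.39, the *Rgs2* probes at 0.27 and −0.21, *Rgs13* at least 2.96-fold higher, and *Rgs18* at background. *Rgs16* was at 0.80 at this scaling and −0.28 with spike-in scaling, beside an *Rgs8* that was not well above background. *Rgs9* stands alone on chromosome 11.

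**Figure D3:**
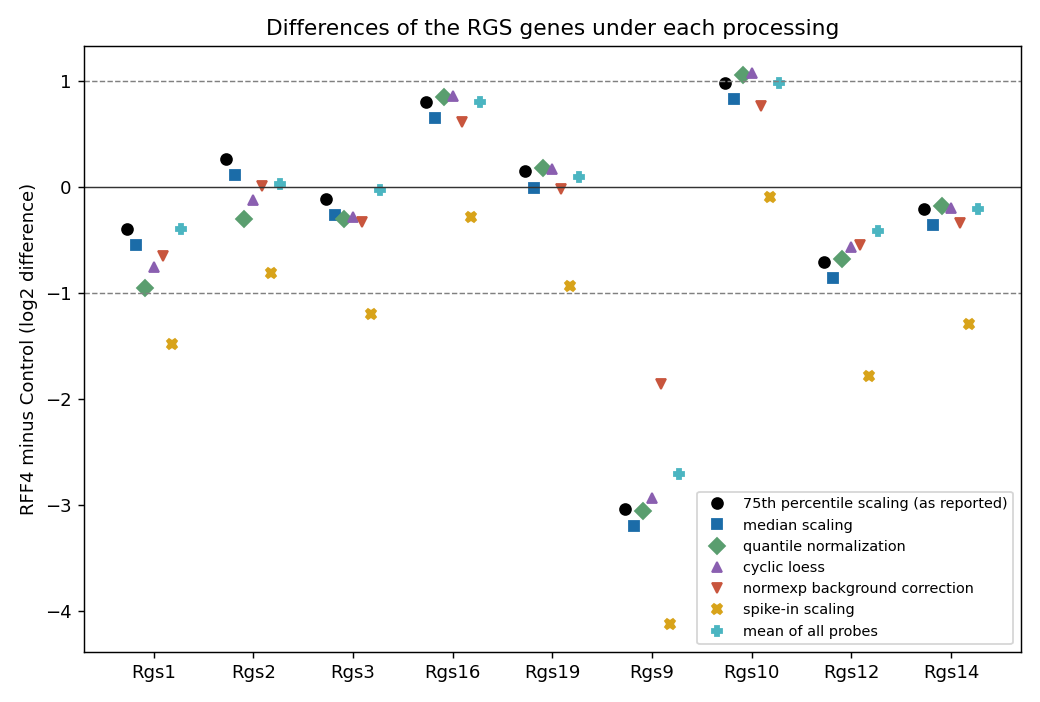
RFF4 minus Control log2 difference of the RGS genes (y axis, genes along the x axis), 1 point for the scaling used here and 1 for each alternative scaling, background correction, or probe summary, with dashed lines at 2-fold. *Rgs9* stays below 0 throughout, between −4.12 and −1.86, *Rgs10* and *Rgs16* fall below 0 with spike-in scaling alone among those drawn, and *Rgs2* changes sign between settings.

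Other genes of G protein signaling were counted in lists chosen by role. Of 104 such genes, 82 had a difference, of which 3 passed 2-fold downward and 10 upward, and the median was 0.08. Over all genes 5.21% and 12.1% passed 2-fold in these directions, so the counts of the pathway genes lay near the background. Relatives that carry an RGS domain, which are receptor kinases, exchange factors, axins, sorting nexins, and the anchoring protein gene *Akap10*, had a median of −0.46, and 12 of 14 were lower, beside 51.9% of all genes. Only *Grk3*, a kinase that desensitizes receptors, passed 2-fold among these, from 1.05 to −1.45, a 5.65-fold lower signal, while the brightest relatives *Arhgef1* and *Grk2* differed by −0.39 and −0.05.

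The RGS proteins described act on some of the Gα subunits, such as Gαi, Gαq, and Gαz, and the list of Gα genes was not limited to these. The Gαi gene *Gnai2*, whose product most RGS proteins of lymphocytes act on, read 6.29 in Control and 6.65 in RFF4, a difference of 0.35, and *Gnas* differed by 0.05. Of 11 Gα genes, *Gnal* was more than 2-fold lower by its brighter probe (−1.49). *Gna15* (1.17), *Gnat2* (1.45), and *Gnaz* (2.30-fold) were more than 2-fold higher at low signals. With all probes averaged, 2 pathway genes in place of 3 were more than 2-fold lower, and *Gnal*, which has 2 probes, no longer passed. The counts in this paragraph stand beside 5.21% of all genes past 2-fold downward and 12.1% upward. Gβ and Gγ genes had a median of 0.30, with *Gng3* (1.44) and *Gng12* (1.17) past 2-fold of 12, and the bright *Gnb2* and *Gng5* differed by 0.41 and 0.00. Among 12 effector genes, *Pik3r6*, a subunit of the Gβγ-driven PI3 kinase, was 2.32-fold lower, *Adcy9* was 3.04-fold higher, and the bright *Prex1* and *Adcy7* differed by 0.10 and −0.46. Of 8 other regulators of Gα none passed 2-fold, and *Gpsm3* and *Ric8a* differed by −0.08 and −0.25.

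Receptors whose signal RGS proteins shorten were mostly on the higher side at this scaling, 17 of 23 beside 48.1% of all genes, while their median was −0.89 with spike-in scaling. Of the lymphocyte G protein-coupled receptors 4 were more than 2-fold higher and 0 more than 2-fold lower, and the median was 0.20, beside 12.1% and 5.21% of all genes past 2-fold in these directions, and nothing particular to the receptors is read from these counts. The 4 were the chemokine receptors *Cxcr4* (1.60), *Cxcr6* (1.39), *Ccr7* (1.38), and *Cxcr3* (1.03). *Gpr132*, a bright receptor gene, differed by −0.56.

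**Figure D4:**
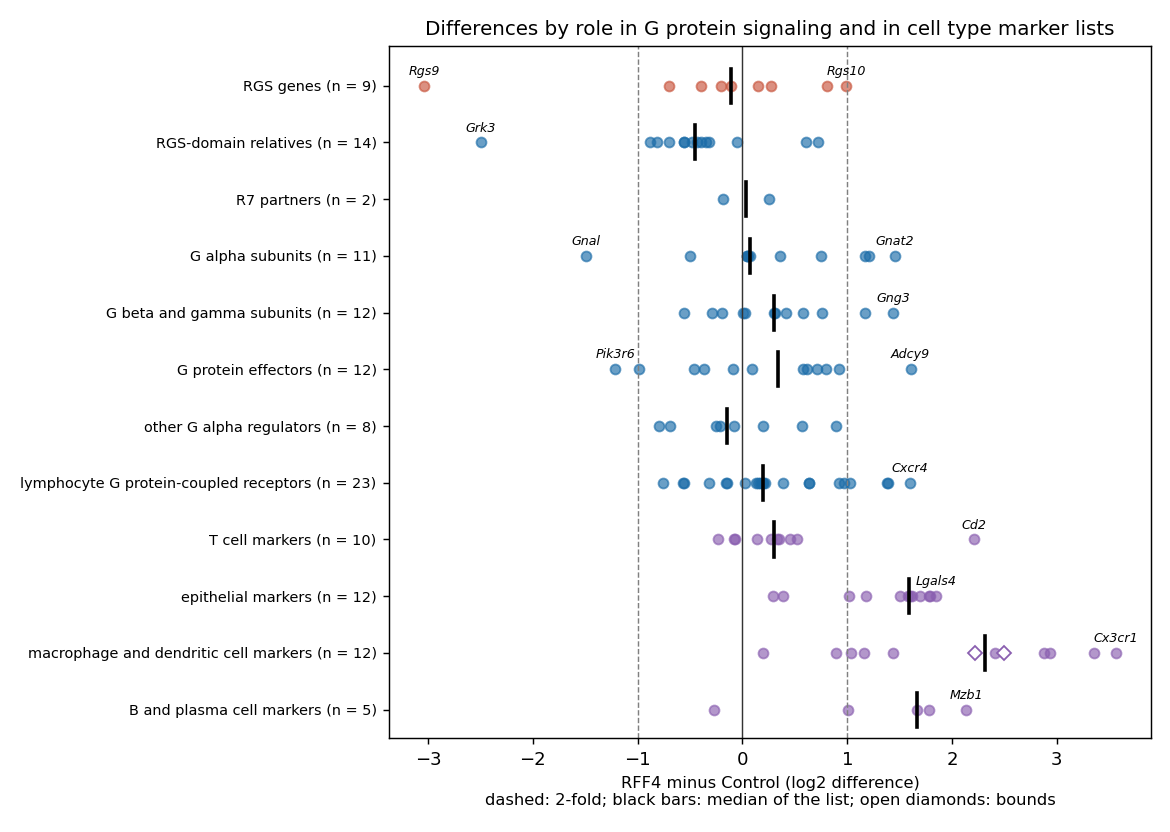
RFF4 minus Control log2 difference (x axis) of each gene in the RGS, G protein pathway, and cell type marker lists, 1 point per gene, with the median of each list as a black bar, bounds as open diamonds, and dashed lines at 2-fold. The RGS median is −0.11, the epithelial markers have a median of 1.59, and the macrophage and dendritic cell markers have a median of 2.32.

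Markers of epithelial cells, macrophages, dendritic cells, and plasma cells were higher in RFF4, with medians still above 0 under spike-in scaling (0.51 for the epithelial, 1.23 for the macrophage and dendritic, and 0.58 for the B and plasma cell list), beside the *Rgs10*, *Rgs16*, *Rgs13*, and receptor signals that were higher at the 75th percentile scaling. Under spike-in scaling *Rgs10* was at −0.09, *Rgs16* at −0.28, *Rgs13* at 0.48, and the receptor median at −0.89. All 12 epithelial markers were higher, beside 48.1% of all genes, by 0.29 to 1.85 with a median of 1.59. Their summed linear signal relative to the 75th percentile went from 250.3 to 759. All 12 macrophage and dendritic cell markers with a probe were higher, 2 of them as bounds, beside 48.1% of all genes. They ran from 0.19 for *Itgax* to 3.56 for *Cx3cr1*, with a median of 2.32 that was 1.27 with normexp. Their sum went from 65.1 to 152, and the little changed *Itgax* (5.73 and 5.92) was its brightest marker on both arrays. Of the B and plasma cell markers, 5 had a difference and 4 of these were more than 2-fold higher, beside 12.1% of all genes, with a median of 1.66, and the sum went from 30.6 to 67.7. The B cell marker *Ms4a1* was 3.44-fold higher, *Cd79b* differed by −0.27, and *Cd79a* and *Pax5* were not well above background. Of 6 granulocyte and mast cell markers, 3 were more than 2-fold higher, beside 12.1% of all genes, up to 2.68 for *S100a8*, *Kit* was at −1.47, and the median of 1.00 turned to −0.09 with spike-in scaling. The T cell markers had a median of 0.30, which was 0.06 with normexp, −0.04 with cyclic loess, −0.23 with quantile normalization, and −0.78 with spike-in scaling, and *Cd2* alone was past 2-fold at 2.21. The part of these cells in the RGS differences was not tested.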

How the data were processed

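The deposited scanner files held the spot intensity of 1-colour Agilent arrays, background-subtracted by the authors' scanner software (Agilent Feature Extraction 10.7.1.1 by the submitters' processing notes). The authors also deposited a table of normalized values, described in the methods as made in GeneSpring. Its log2 difference equals that of 75th percentile scaling of the deposited intensities up to an offset of −5.35e-05, taken from the 55840 lines whose values sum to 0 within 0.001, while 905 lines are on another scale and 6231 have no value.

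Control spots and spots marked as outliers were left out, spots of a probe were averaged, log2 intensities were centred on the 75th percentile of each array, and a gene was represented by its probe with the highest mean signal. Accessions of 27509 probes matched RefSeq genes. A probe counted as well above background on an array where 50% or more of its spots had that mark, and a difference against a dimmer array where it was not is a bound, taken against the higher of its own signal and the lowest well-above-background signal of that array (−5.30 in Control and −4.10 in RFF4). With 1 array per genotype no test was run, and the number of arrays limits the precision. Alternatives were quantile, cyclic loess, median, and spike-in scaling, normexp background correction with an offset of 50, all probes averaged, outlier spots kept, no filter, a filter on both arrays, and the authors' table. Python 3.11.15, R 4.3.3, and limma 3.58.1 were used. The 75th percentile scaling and the difference of probes well above background on both arrays were tested on simulated data, and the other steps were not.

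The RGS genes and all lists were chosen with earlier results of these data known. Named genes are the 10 RGS genes with all probes, every other Rgs gene, pathway genes past 2-fold and the brightest 2 of each list, extreme or undetected markers, and *Rbpj*, *Heyl*, and *Dtx1*. *Akap10*, *Ms4a1*, *Cd79b*, and *Itga2b* were named after their values were seen. No gene was named for a pattern like that of an RGS gene, since 2 arrays give 1 difference. One cell type marker is not reported here.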

Additional observations from a re-analysis of the deposited data

How the results depend on the processing

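No paired analysis was possible because each genotype has 1 array, and for the same reason no replicate could be left out. By the gene value, *Rgs1*, *Rgs3*, *Rgs9*, *Rgs12*, and *Rgs14* stayed below 0 under all 10 alternatives. Only quantile normalization, cyclic loess, normexp, and the probe mean could turn a sign there, since the others repeat the value or lower every difference. No direction is given for *Rgs3*, whose dimmest probe was at 0.09 and whose differences lay within the technical SD. The dim *Rgs12* probes turned to 0.42 and 0.69 with normexp. Scaling to the 8 spike-in probes moved the median of all genes by −1.05, median scaling by −0.15, and the use of every gene with no filter by 0.27. Among all calls past 2-fold, 69.9% were higher in RFF4, against 56.0% with median scaling, 2.66% with spike-in scaling, and 86.0% with no filter. Of all genes, 213 of 14207 were more than 2-fold higher with spike-in scaling and 1125 of 13154 with normexp. With the filter on both arrays 1483 of 12955 were, and with no filter 6222 of 20887. More than 2-fold lower were 1052 of 13614 with median scaling, 515 of 13154 with normexp, and 1011 of 20887 with no filter. Nothing is read from the counts below beside these. The median of the RGS genes (−0.11) was −0.30 with quantile normalization, −0.33 with normexp, and −1.19 with spike-in scaling, which by its construction shifts all genes. Of the 10 RGS genes, 5 were more than 2-fold lower with spike-in scaling, under which 7801 of all 14207 genes with a difference were, and 1 was more than 2-fold higher with quantile normalization, with cyclic loess (*Rgs10* in both), and with no filter, where 1 also passed 4-fold (*Rgs18*, at background). With normexp 0 were more than 4-fold lower. Over all RGS genes, 6 were more than 2-fold and 2 more than 4-fold lower with spike-in scaling, and 1 and 0 with normexp. The number more than 2-fold higher was 0 with spike-in scaling, 1 with normexp, 1 with the filter on both arrays, and 7 with no filter, of which 1 passed 4-fold. Pathway genes more than 2-fold lower numbered 5 with median scaling and 41 with spike-in scaling, and those higher numbered 0 with spike-in scaling, 6 with normexp, and 27 with no filter. Markers of other cells more than 2-fold lower numbered 4 with spike-in scaling and 2 with no filter, and 10 were higher with spike-in scaling. The platelet marker median was −0.0031 with spike-in scaling, where *Itga2b* joined as a bound at −0.31 and *Gp1bb* stayed above 0 at 0.30. Which scaling is right was not tested. Dim probes limit what can be read, since the dimmest of the repeatedly printed probes had a spot SD of 0.20 in Control and 0.16 in RFF4, and *Rgs7*, *Rgs13*, and *Rgs9* in RFF4 had background-subtracted intensities smaller than the local background.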
